A study of Rattus norvegicus with 56 samples.

Results

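Gene expression directly after the end of 1 Hz repetitive transcranial magnetic stimulation (rTMS) was compared with sham in cultured rat hippocampal neurons. The comparison used the 7 arrays whose titles name 1 Hz or sham at 0 h, 3 and 4 respectively, of 56 arrays in the series. All cultures came from hippocampi of E18 Sprague-Dawley rat embryos and were grown in Neurobasal medium with B27, with no mutation in any group and no agent that the labels give to 1 group alone. For 1 Hz, dishes stood on an inverted coil that gave single pulses at an even pace, in repeated blocks with rests between them, and RNA was taken with no delay after the last block. Sham dishes stood in an incubator with the coil away from the plate. Neither the labels nor the methods say whether the arrays of 1 group came from separate cultures, so p-values measure only the spread between these samples, which may be technical. The preparation is a mixed bulk culture, in which fewer cells of a type and less RNA per cell cannot be told apart.

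A changing magnetic field induces an electric current, which can depolarize axons and make neurons fire. Firing neurons switch on immediate-early genes such as Fos, Arc, Egr1 and Npas4 within minutes, without new protein synthesis, through calcium signals that reach the transcription factors CREB, SRF and MEF2. Genes that follow temperature and nutrients in a dish (heat shock proteins, the cold-inducible proteins Rbm3 and Cirbp, the glucose-sensing arrestins Txnip and Arrdc4) were described beside the activity genes.

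Levels are scaled log2 signals, set so that each array has a mean of 0, and a difference of 1 is a doubling. The descriptions of the samples number them in runs, here called series A, B, C and D, and what a series was (a preparation or a day) is not stated. Sham replicates 1 to 4 belonged to series B, A, C and D and 1 Hz replicates 1 to 3 to series B, C and D. Values per array are given below in this order. Arrays of the same series correlated at 0.989 to 0.990 over all probes, whatever their group, and arrays of different series at 0.978 or less. Each comparison was therefore made without a block and within series, where the differences between 1 Hz and sham of series B, C and D form 3 pairs. In every pair the 1 Hz array was the dimmer of the pair, with a 75th percentile of the signal of 4537 against 5798 in series B, 4361 against 7005 in series C and 4428 against 6423 in series D. It also had fewer spots well above background in each pair. The part of this in the results was not tested. All 16 measured neuron markers, among them Map2, Tubb3, Stmn2 and Dcx, were well above background on all 7 arrays, with a mean level of 6.07 to 6.62 on sham and 6.18 to 6.68 on 1 Hz arrays.

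No probe passed an adjusted p of 0.05 directly after 1 Hz stimulation. limma called 0 of 35694 probes (0%) without a block, where the smallest adjusted p was 1.00, and 0 of 35694 (0%) within series, where it was 0.559. At an unadjusted p under 0.05 without a block, 110 probes were higher after 1 Hz (0.308%) and 211 lower (0.591%). Within series these numbers were 417 (1.17%) and 745 (2.09%). In both fits the share of probes was smaller than this threshold itself, which is the share that would pass if nothing differed. Under scaling by the 75th percentile, 152 were higher and 87 lower without a block, but 489 higher and 545 lower within series. With quantile normalization, 123 were higher and 159 lower without a block, and 426 and 585 within series. With normexp background correction before it, these were 183 and 126, and 488 and 559. The surplus of lower probes thus turned under 2 scalings without a block and under none within series. In simulated data of the same layout, 84 of 100 probes changed by 2 on the log2 scale were recovered without a block and 95 of 100 within series. Among unchanged probes 0 passed without a block and 4 within series. The simulated noise was normal, with equal parts for series and arrays in every probe, so these rates may not hold where series differ more. Changes smaller than 2 were not simulated, so these rates do not describe differences of the size of the leading genes below. Over all probes, 46.5% were higher after 1 Hz, 15.7% were higher in all 3 pairs and 18.7% lower in all 3. The 1 Hz arrays lay wholly above the sham arrays for 1.19% of probes and wholly below for 1.5%. Gene groups are counted with 1 probe per gene. Over all 13881 genes so counted, 44.8% were higher, 15.9% higher in all 3 pairs and 21.2% lower in all 3. The 1 Hz arrays lay wholly above sham for 1.33% of genes and wholly below for 1.69%. The same counts of each gene group are to be read beside these shares of genes. An exact permutation test of a single value allows 35 arrangements of 3 against 4 arrays and no two-sided p below 0.0571. When the selection steps of the study's methods were run on the deposited z-scores, 75 probes (18 higher, 57 lower) passed a z-ratio limit of 1.5, and 3 of them also had a mean z-score above 0. The named gene among these 3 was Slc19a1, the reduced folate carrier, which was lower after 1 Hz, and it was chosen after its values were seen. The selection steps were rebuilt here from the methods text. They left far fewer probes than the number of genes the study reports as changed for this comparison, and the reason was not tested.

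Among the genes well above background on all 7 arrays, Gabrd had the smallest p of those lower after 1 Hz in the fit without a block. It encodes the delta subunit of GABA-A receptors, which lie outside synapses and carry tonic inhibition. Its level was 2.38, 2.83, 2.25 and 2.30 on the sham arrays and 1.96, 1.97 and 1.93 on the 1 Hz arrays. All 1 Hz arrays lay below all sham arrays, and they differed from each other by less than the sham arrays did (1.95 ± 0.02, SD, n = 3, against 2.44 ± 0.27, SD, n = 4). The difference was −0.49 (SE 0.15), or 1.40-fold lower, with an unadjusted limma p of 0.003 and an adjusted p of 1.00. Within series it was −0.43 (SE 0.14), with pair differences of −0.42, −0.28 and −0.37. At later times the difference between 1 Hz and sham was −0.19, −0.01, 0.08 and 0.10 at 2, 8, 24 and 48 h. The contrast of 0 h against 8, 24 and 48 h was −0.54 (SE 0.18) and did not pass (unadjusted limma p 0.00422, adjusted p 1.00). Gabrd was chosen by its 0 h values, which this contrast uses again, so its p is not independent of that choice. In that contrast 0 probes passed (0%), with 182 higher (0.51%) and 410 lower (1.15%) at an unadjusted p under 0.05. At 0 h Gabrd read 2.21 to 2.56 on the untreated control arrays and 1.96 to 2.16 on the arrays of intermittent theta burst stimulation (iTBS), which were compared with the same sham arrays.

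The other genes of GABA signaling were divided. Of these 25 (receptor subunits, synthesis and transport enzymes, chloride cotransporters and receptor partners), 10 were higher and 15 lower after 1 Hz, with a median of −0.06 against −0.03 over all 13881 genes. In the 3 pairs, 6 were higher in each and 5 lower in each. Gabarapl1, a relative of the GABA-A receptor-associated protein that takes part in autophagy, read 8.38, 8.07, 8.98 and 8.79 in sham and 8.66, 9.22 and 9.20 after 1 Hz. It was higher in every pair but the groups overlapped (0.35, SE 0.19 within series, unadjusted limma p 0.0836).

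Bcl6, a zinc finger repressor of transcription, was among the leading higher genes in both fits. It read 4.42, 3.41, 4.31 and 3.94 in sham and 4.52, 4.65 and 4.67 after 1 Hz. Every 1 Hz array lay above every sham array, with the lowest sham level in series A, which has no 1 Hz array. The difference was 0.59 (SE 0.26, unadjusted limma p 0.0302) and 0.46 (SE 0.14, unadjusted limma p 0.00293) within series, with pair differences of 0.10, 0.33 and 0.72. Bcl6 is a target of glucocorticoids and FoxO factors in many cells. Of the 12 measured genes of that list, Bcl6 included, 5 were higher and 7 lower without a block, with a median of −0.02. Within series 9 of the 12 were higher, with a median of 0.06, beside −0.02 over all genes.

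**Figure D1:**
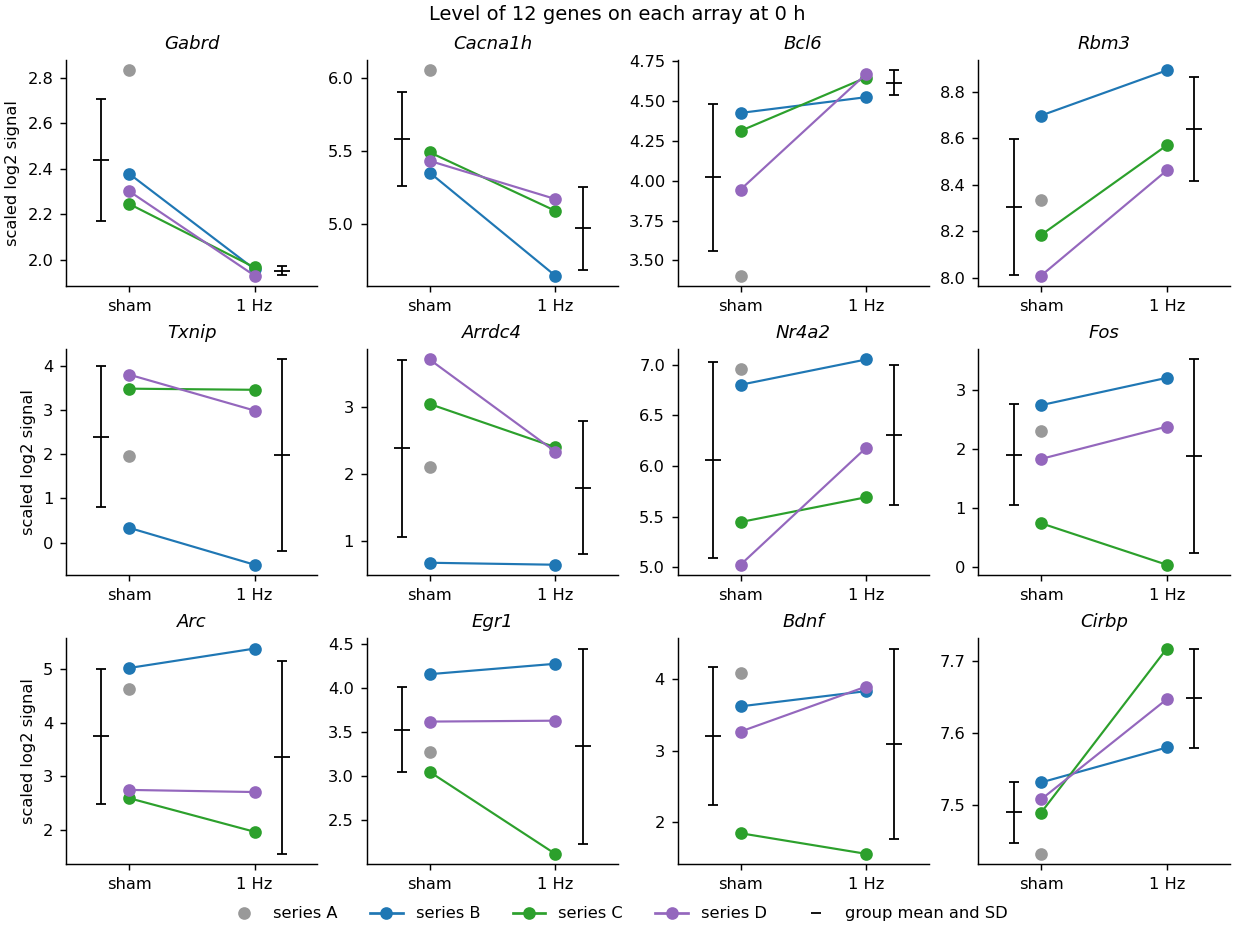
Scaled log2 signal of 12 genes on the 4 sham and 3 1 Hz arrays at 0 h, with lines joining the arrays of 1 series and bars giving the group mean and SD. Gabrd and Cacna1h were lower and Bcl6 and Cirbp higher on all 1 Hz arrays than on all sham arrays, and for Fos, Arc, Txnip and Arrdc4 the series lie farther apart than the groups.

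The remaining leading genes, chosen as the 6 higher and 6 lower genes with the smallest p in each fit and with signal well above background on all 7 arrays, came from many functions. Among the higher ones without a block, Aipl1, a chaperone known from photoreceptors, had the largest difference, 0.85 (SE 0.31, unadjusted limma p 0.00808), but in series B its pair difference was 0.04. Without the 1 Hz array of series C it was 0.50, without that of series B 1.31, and with normexp and quantile normalization 0.45. Eny2, a subunit shared by a histone deubiquitinase module and an mRNA export complex, read 6.16, 5.74, 6.12 and 6.07 in sham and 6.28, 6.47 and 6.43 after 1 Hz. Its groups did not overlap, and the difference was 0.37 (SE 0.16, unadjusted limma p 0.027). Zfp458 and Zfp46, both zinc finger genes, differed by 0.64 (SE 0.28) and 0.39 (SE 0.18), and Tmprss15, the protease enteropeptidase, by 0.69 (SE 0.31).

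The smallest p among higher genes within series belonged to Zfp458 (0.60, SE 0.16, unadjusted limma p 0.000819). Rbmx, an RNA-binding protein of the spliceosome, followed with 0.33 (SE 0.09, unadjusted limma p 0.00134) and pair differences of 0.22, 0.26 and 0.44, while a second probe gave −0.08. Arhgap12, a GTPase-activating protein, read 5.48, 5.13, 5.41 and 4.80 in sham and 5.63, 5.57 and 5.63 after 1 Hz. Its groups did not overlap, and series D, where sham was lowest, held most of the difference.

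Among the lower leading genes, Mapk11, the p38 beta kinase, read 1.76, 2.27, 1.63 and 2.29 in sham and 1.57, 1.08 and 1.46 after 1 Hz (−0.53, SE 0.15 within series, unadjusted limma p 0.00161). Tmem163, a zinc transporter of synaptic vesicles, read 4.00, 4.53, 3.96 and 4.09 against 3.85, 3.49 and 3.40 (−0.43, SE 0.13, unadjusted limma p 0.00211). In both, the 1 Hz arrays lay wholly below sham, and the pair of series B differed least. Tspan14, a tetraspanin that escorts the protease ADAM10, also did not overlap and differed by −0.53 (SE 0.23) without a block. Cln6, a protein of the endoplasmic reticulum lost in a form of Batten disease, had the smallest p among the lower genes within series (−0.45, SE 0.12, unadjusted limma p 0.000881), although its sham array of series A lay below the 1 Hz arrays. Bmp3, a secreted ligand of the TGF-beta family, was lower by −0.57, −0.31 and −0.53 in the 3 pairs. Npm2, a histone chaperone best known from oocytes, had the largest difference of the lower genes, −0.97 (SE 0.42), with overlapping groups. The other lower genes of the rule were Cwf19l1, Fam98c, Nhsl3, Nherf2 and Vmo1, and the groups did not overlap for Cwf19l1 (−0.75, SE 0.32) and Fam98c (−0.40, SE 0.17). Cwf19l1 was dim, with a mean level of −1.77 over all arrays, and its difference was −0.27 with normexp and quantile normalization.

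**Figure D2:**
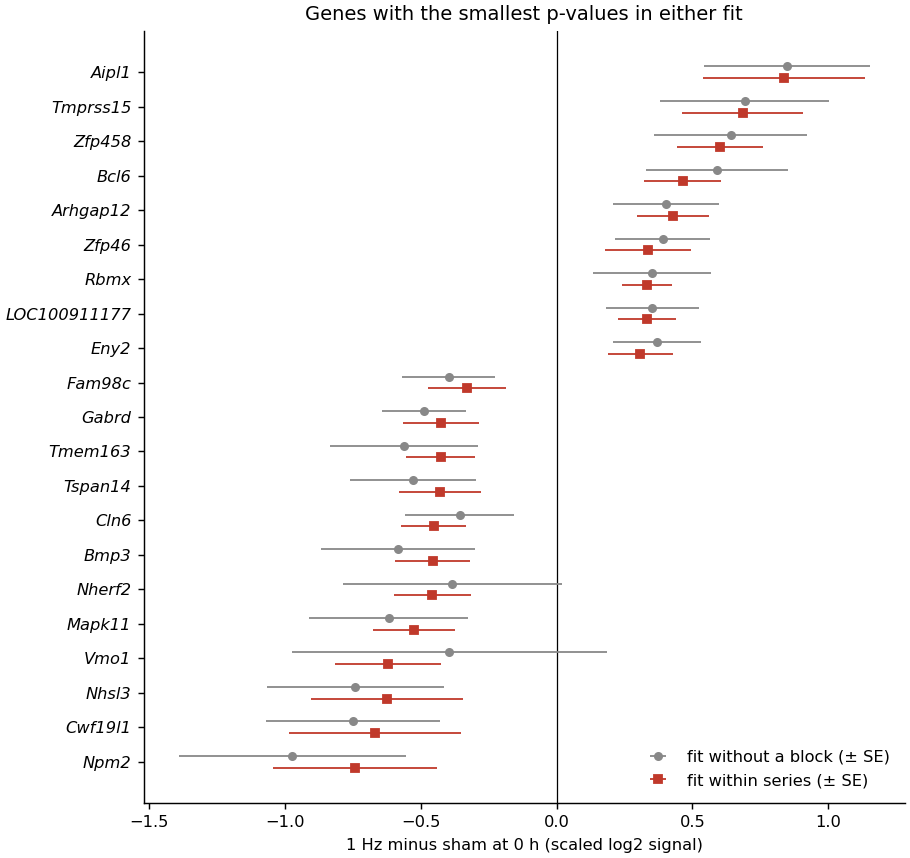
Difference between 1 Hz and sham at 0 h, in scaled log2 signal with SE bars, for the genes with the smallest p in the fit without a block (circles) or within series (squares). Differences run from Npm2 at −0.97 to Aipl1 at 0.85 without a block, and none passed the adjusted threshold.

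The immediate-early transcription factors did not move together. Of 26 measured, 8 were higher after 1 Hz and 18 lower without a block, with a median of −0.07, and within series the median was 0.04. They split by pair: 16 of 26 were higher in series B (median 0.12), 5 in series C (median −0.23) and 23 in series D (median 0.34). Srf and Nr4a2 alone were higher in all 3 pairs and Egr3 was lower in all 3. The sham arrays themselves spanned a median of 1.61 for these genes, beside a median absolute difference of 0.23 within a pair. Leaving out the 1 Hz array of series C moved the median of the list to 0.38, and leaving out that of series B moved it to −0.44.

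Fos, the partner of Jun in the AP-1 factor, read 2.75, 2.31, 0.74 and 1.84 in sham and 3.21, 0.04 and 2.38 after 1 Hz. The means were 1.91 ± 0.86 (SD, n = 4) and 1.88 ± 1.65 (SD, n = 3), and the highest and the lowest arrays were both 1 Hz arrays. The difference was −0.03 (SE 1.26, unadjusted limma p 0.98) without a block and 0.15 (SE 0.31, unadjusted limma p 0.626) within series, with pair differences of 0.46, −0.70 and 0.55. Arc, a cytoskeletal protein of activated dendrites, read 5.02, 4.63, 2.59 and 2.74 in sham and 5.39, 1.96 and 2.70 after 1 Hz. It was lowest in series C in both groups, and the within-series difference was −0.08 (SE 0.23, unadjusted limma p 0.73). Egr1, a zinc finger factor, read 4.16, 3.28, 3.05 and 3.62 against 4.27, 2.12 and 3.63, with a within-series difference of −0.26 (SE 0.34, unadjusted limma p 0.451). Nearly all of its difference came from series C, at −0.93, beside 0.12 in series B and 0.01 in series D.

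Npas4, a factor that responds to calcium entry in neurons, was well above background on 3 of 4 sham and 2 of 3 1 Hz arrays. It read −0.32, −0.36, −2.69 and −1.03 in sham and −0.17, −3.63 and −0.31 after 1 Hz, again with both groups lowest in series C. Bdnf, the neurotrophin whose gene is induced by activity, read 3.62, 4.09, 1.85 and 3.27 against 3.83, 1.56 and 3.90 (0.16, SE 0.21 within series, unadjusted limma p 0.454). It was higher in series B and D and lower in series C, as Fos was.

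Nr4a2, an orphan nuclear receptor that is switched on by activity and required by dopamine neurons, had the larger difference of the pair of genes that were higher in every series. It read 6.80, 6.96, 5.45 and 5.03 in sham and 7.05, 5.69 and 6.18 after 1 Hz. The groups overlapped, and the pair differences were 0.25, 0.24 and 1.15 (0.49, SE 0.21, unadjusted limma p 0.0306, adjusted p 1.00), so series D held most of it. A second probe of the gene gave 0.08 within series. Its relative Nr4a1 read 5.59, 5.29, 4.70 and 4.70 against 5.71, 4.66 and 5.08, a within-series difference of 0.13 (SE 0.16, unadjusted limma p 0.437). Egr3, which was well above background on 1 of 3 1 Hz arrays, read −2.29, −2.54, −2.48 and −2.01 in sham and −2.84, −3.06 and −2.97 after 1 Hz. It lay wholly below sham near the detection limit (−0.64, SE 0.44 within series, unadjusted limma p 0.153).

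CREB binds the letters CGTCA as the core of its element, and the promoters of these receptor genes are shown to let the sequences be compared. They run from 250 bases before to 50 after the start of the gene (RefSeq, build GRCr8), with each CGTCA in capitals, or its complement TGACG where it lies on the other strand. Of 33469 such windows, 21.2% hold at least 1 match on either strand and 0.236% hold 4 or more. Nr4a1 is at chr7:134259888-134260187 on the plus strand with 4 matches, and Nr4a2 at chr3:62104838-62105137 on the minus strand with 1.
Nr4a1: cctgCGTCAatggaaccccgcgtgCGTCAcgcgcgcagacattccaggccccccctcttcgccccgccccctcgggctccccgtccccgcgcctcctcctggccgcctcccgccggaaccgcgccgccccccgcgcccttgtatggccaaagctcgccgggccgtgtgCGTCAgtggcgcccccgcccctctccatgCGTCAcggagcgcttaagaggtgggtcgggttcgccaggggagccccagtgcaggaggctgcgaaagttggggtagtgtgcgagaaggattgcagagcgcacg
Nr4a2: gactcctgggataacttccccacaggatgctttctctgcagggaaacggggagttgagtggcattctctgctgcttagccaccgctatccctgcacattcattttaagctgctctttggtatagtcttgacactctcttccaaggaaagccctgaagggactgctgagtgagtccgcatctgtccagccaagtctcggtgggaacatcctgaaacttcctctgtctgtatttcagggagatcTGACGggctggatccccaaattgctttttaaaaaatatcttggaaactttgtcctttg
A match is a description of letters and not a binding site, and neither gene passed the test.

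Genes for activity-induced effectors, the proteins that such factors raise later at synapses and in signaling, were as divided. Of 24 measured, 7 were higher and 17 lower, with a median of −0.12 without a block and 0.04 within series, 3 higher in all pairs and 5 lower in all. Gadd45b, a DNA repair and demethylation factor, was higher in every pair (0.36, SE 0.19 within series, unadjusted limma p 0.0685), by 0.19, 0.03 and 0.94. Inhba, the activin A subunit, was lower in every pair (−0.30 within series, unadjusted limma p 0.162), but 0.03 without a block and −0.04 with the slide as a block.

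**Figure D3:**
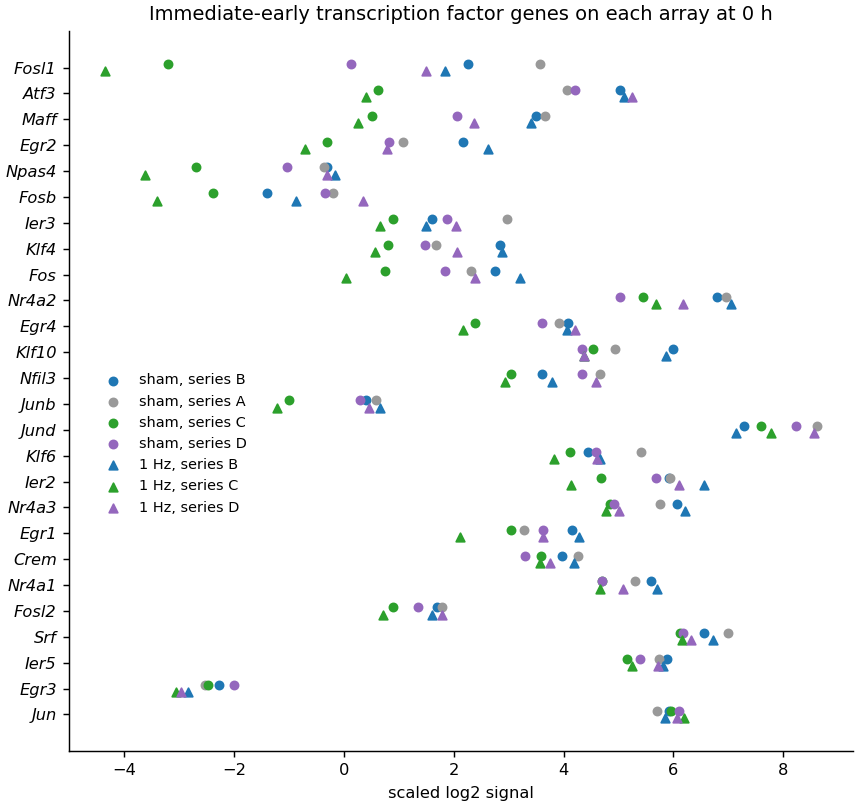
Scaled log2 signal of the 26 immediate-early transcription factor genes at 0 h, circles for sham and triangles for 1 Hz arrays, colored by series and ordered by the spread of the sham arrays. Arrays of 1 series lie near each other whatever their group, and for Fos, Npas4 and Egr1 the lowest value is the 1 Hz array of series C.

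Txnip and Arrdc4 encode arrestins that limit glucose uptake and are switched on by MondoA when sugar phosphates are plentiful. Txnip read 0.34, 1.97, 3.49 and 3.81 in sham and −0.50, 3.46 and 2.99 after 1 Hz. The sham arrays spread widely (2.40 ± 1.59, SD, n = 4), and the difference without a block was −0.42 (SE 1.23, unadjusted limma p 0.737). Within series it was −0.67 (SE 0.23, unadjusted limma p 0.00685, adjusted p 1.00), lower by −0.84 in series B and −0.82 in series D and by −0.03 in series C. At 2 h, on 2 arrays of 1 Hz, the difference without a block was 2.27. Arrdc4 read 0.68, 2.10, 3.04 and 3.70 in sham and 0.65, 2.40 and 2.33 after 1 Hz, a within-series difference of −0.63 (SE 0.25, unadjusted limma p 0.0198). The pair differences of Arrdc4 were spread otherwise: it was lower by −0.03, −0.64 and −1.37 in series B, C and D. Both were lower in series D, Txnip but hardly Arrdc4 in series B, and Arrdc4 but hardly Txnip in series C. Of the 15 other genes of the hypoxia and glucose list 8 were higher and 7 lower, 1 higher in all pairs and 4 lower in all. Ero1a, an oxidase of the endoplasmic reticulum induced by hypoxia, was among these 4, with 2.93, 2.93 and 2.94 after 1 Hz wholly below the sham range of 3.08 to 3.26 (−0.16, SE 0.12 within series, unadjusted limma p 0.191), and is named after its values were seen.

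The promoter of Arrdc4 is shown because the letters CACGTG stand in the element that MondoA binds. The window at chr1:131793376-131793675 (minus strand, RefSeq, build GRCr8) holds 1 match, in capitals, as do at least 1 in 6.42% of all windows.
Arrdc4: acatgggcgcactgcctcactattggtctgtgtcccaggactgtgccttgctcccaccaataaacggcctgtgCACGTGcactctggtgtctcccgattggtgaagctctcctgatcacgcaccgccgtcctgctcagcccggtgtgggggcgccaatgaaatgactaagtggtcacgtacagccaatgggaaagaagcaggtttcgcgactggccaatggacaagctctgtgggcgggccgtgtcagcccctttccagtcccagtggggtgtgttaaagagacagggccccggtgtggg
The letters describe this window alone, and their part in the lower level was not tested.

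Genes that follow temperature differed little, with the cold-inducible ones slightly higher. Rbm3, an RNA-binding protein that rises when cells cool, read 8.70, 8.33, 8.18 and 8.01 in sham and 8.89, 8.57 and 8.46 after 1 Hz. The groups overlapped, and it was higher in all 3 pairs, by 0.19, 0.39 and 0.45 (0.37, SE 0.17 within series, unadjusted limma p 0.0321, adjusted p 1.00), while a second, dimmer probe gave −0.12 within series. Cirbp, its close relative, read 7.53, 7.43, 7.49 and 7.51 in sham and 7.58, 7.72 and 7.65 after 1 Hz. All its 1 Hz arrays lay above sham, but the within-series difference of 0.10 (SE 0.15, unadjusted limma p 0.506) was −0.02 under quantile normalization, and a dimmer probe gave −0.05. With the splicing kinases, 12 of the 14 measured genes of this list were higher, with a median of 0.13, and 8 were higher in all pairs and 0 lower in all. The median was 0.07 without the sham array of series D, 0.06 with quantile normalization and 0.04 with normexp before it, and untreated control minus the same sham arrays gave 0.12, with 9 of 14 higher. Clk1 and Clk4, kinases of splicing factors that are active at lower temperature, differed within series by 0.31 (SE 0.19, unadjusted limma p 0.111) and 0.26 (SE 0.11, unadjusted limma p 0.0309). Among 17 heat shock protein genes, 13 were higher, with a median of 0.09, and no probe was matched to the inducible Hspa1b. Hspa8, the constitutive cytosolic chaperone, lay wholly above sham, at 11.35, 11.32 and 11.18 against 11.09, 10.79, 10.70 and 10.68. Its within-series difference of 0.35 was 0.06 with quantile normalization and 0.01 with normexp before it. Other probes of the gene gave 0.32, 0.12 and, for the dimmest, −0.10 within series. Hspe1, the mitochondrial co-chaperonin, was higher by 0.20, 0.17 and 0.42 in the 3 pairs (0.26, SE 0.11 within series, unadjusted limma p 0.0331).

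In the stress response of the endoplasmic reticulum, 14 of 21 genes were higher, with a median of 0.07, 7 in all pairs. The median was −0.24 without the 1 Hz array of series D and 0.24 without that of series C. Ddit3, the pro-apoptotic factor CHOP, and Slc7a11, a cystine transporter that ATF4 induces, were higher by 0.79 and 0.81 in series D and by 0.20 or less in the other pairs. The clock genes were divided, with 6 of 14 higher and a median of −0.03 without a block, and 9 of 14 and 0.10 within series. Cholesterol genes were mostly lower without a block (16 of 20, median −0.20) but not within series (median −0.01), and 7 were higher in all pairs. Hmgcs1, which makes the precursor of the pathway, was higher in every pair, by 0.32, 0.47 and 0.32, and its within-series difference of 0.32 was 0.08 with quantile normalization.

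The most uniform pattern was that of the cytosolic ribosomal protein genes, the parts of the machine that makes proteins. All 72 measured were higher after 1 Hz, each in all 3 pairs, with differences from 0.07 to 0.58 and a median of 0.34 without a block and 0.26 within series, beside −0.03 and −0.02 over all 13881 genes. None had an unadjusted limma p under 0.05 in either fit. Their mean level was 9.81, 9.58, 9.80 and 9.45 on the sham arrays and 10.08, 10.16 and 9.75 on the 1 Hz arrays, so the means overlapped, although each pair differed. For 9 genes, Rpl21, Rpl32, Rplp0 and Rps29 among them, the groups did not overlap. Rplp0, part of the stalk of the large subunit, read 11.18, 10.95, 10.99 and 10.74 in sham and 11.44, 11.59 and 11.28 after 1 Hz. Rps29, a small-subunit protein, read 10.59, 10.50, 10.61 and 10.35 against 10.90, 11.18 and 10.84.

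The size of this difference depended on the scaling, and genes of high signal shared it. With arrays scaled by the 75th percentile, 70 of 72 ribosomal genes were higher (median 0.23), with quantile normalization 49 (median 0.05), and with normexp background correction before it 47 (median 0.04). Among the 159 other genes whose mean level was at least 9, a limit set after the data were seen, 150 were higher (94.3%), with a median of 0.25, and under quantile normalization this median was −0.03. At 2 h the median of the ribosomal genes was 0.27, with 72 higher, and at 8, 24 and 48 h it was −0.13, −0.51 and −0.15, with 3, 0 and 7 higher. Untreated control minus the same sham arrays gave a median of −0.08, with 12 of 72 higher.

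Genes of the respiratory chain, which are also bright, were next. Of 33 complex I genes 25 were higher (median 0.19), 22 in all pairs and 0 lower in all, and of 37 genes of complexes II to V 32 were higher (median 0.22), 27 in all pairs and 3 lower in all. With quantile normalization 19 of the 33 (median 0.06) and 22 of the 37 (median 0.06) were higher, and without the sham array of series D the median of complexes II to V was 0.13. Ndufb3, an accessory subunit of complex I, read 8.64, 7.85, 8.82 and 8.18 in sham and 8.98, 9.11 and 8.58 after 1 Hz. Cox6c, a subunit of cytochrome c oxidase, read 9.93, 9.30, 9.82 and 9.33 against 10.27, 10.14 and 9.95, and its groups did not overlap (0.39, SE 0.25 within series, unadjusted limma p 0.124). Uqcr10, a small subunit of complex III, was higher by 0.39, 0.39 and 0.46 in the pairs.

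**Figure D4:**
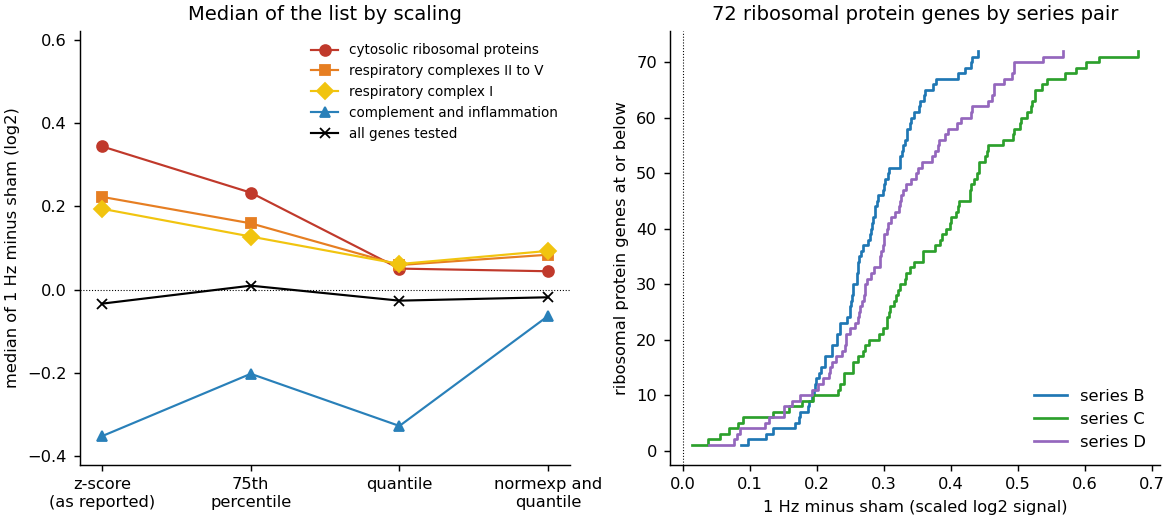
Left, median difference between 1 Hz and sham at 0 h (log2) of 4 gene lists and of all genes under 4 scalings. Right, number of the 72 ribosomal protein genes at or below each difference in scaled log2 signal, for the pairs of series B, C and D: every gene lies above 0 in each pair, and the median of the list falls from 0.34 to 0.05 with quantile normalization.

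Counts of ion channel and receptor genes are read beside the 7667 of all 13881 genes (55.2%) that were lower. Of 33 potassium and HCN channel genes, 21 were lower (median −0.19 without a block and −0.09 within series), 10 in all pairs and 2 higher in all. The median was −0.04 without the sham array of series D and −0.05 with normexp background correction and quantile normalization. Hcn3, a channel of the pacemaker current, read 1.55, 1.99, 1.30 and 2.02 in sham and 1.24, 0.98 and 1.52 after 1 Hz (−0.39, SE 0.14 within series, unadjusted limma p 0.00979). Kcnj6, the GIRK2 channel that G proteins open, read 0.14, 1.08, 0.25 and 1.09 against −0.08, −0.25 and 0.45. Both were lower in every pair, and both groups overlapped.

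Of 22 sodium and calcium channel genes, 13 were lower, 6 in all pairs. Cacna1h and Cacna1g, T-type calcium channels that open near the resting potential, were among these 6, and the third gene of that type, Cacna1i, was not (−0.04, SE 0.15 within series). Cacna1h read 5.35, 6.05, 5.49 and 5.43 in sham and 4.64, 5.09 and 5.17 after 1 Hz, wholly below sham (−0.48, SE 0.21 within series, unadjusted limma p 0.0282). Cacna1g read 3.13, 4.44, 3.98 and 4.21 against 2.96, 3.78 and 3.47, which overlapped because series B was low in both groups (−0.49, SE 0.22, unadjusted limma p 0.0332).

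Among 26 glutamate receptor genes, 18 were lower, 6 in all pairs and 1 higher in all. Grm5, the metabotropic receptor mGluR5, was lower by −0.13, −0.44 and −0.41, and Cacng3, an auxiliary subunit that carries AMPA receptors, by −0.14, −0.25 and −0.76. The 28 postsynaptic kinases and scaffolds were evenly split, 14 higher and 14 lower, with 10 higher in all pairs and 4 lower in all. Prkcz, the atypical protein kinase C zeta, read 2.59, 3.33, 3.08 and 3.40 in sham and 2.46, 2.71 and 2.96 after 1 Hz (−0.36, SE 0.17 within series, unadjusted limma p 0.0385). Of 26 presynaptic genes 19 were lower (median −0.08), but 5 were higher and 3 lower in all pairs, and the median was 0.06 without the 1 Hz array of series B. Slc17a7, the vesicular glutamate transporter VGLUT1, was among the 3, lower by −0.32, −0.34 and −0.15. The study's own selected genes, which had been chosen on these samples and so are not independent evidence of a direction, were divided as well, with 19 of 49 higher and a median of −0.06.

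Secreted signals gave single genes rather than a group. Chga, a granule protein of secretory cells, read 3.82, 4.04, 3.26 and 4.13 in sham and 3.46, 2.91 and 3.78 after 1 Hz, with the same difference in each pair (−0.35, −0.36 and −0.36), although the groups overlapped (−0.36, SE 0.16 within series, unadjusted limma p 0.0373). Of its list of 24 neuropeptide and granule genes 15 were lower, 6 in all pairs. Cntf, a survival factor of motor neurons that glia make, was higher by 0.10, 0.21 and 0.47 (0.33, SE 0.12 within series, unadjusted limma p 0.0111), and of the 15 neurotrophic factor and receptor genes 7 were higher.

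Complement and inflammation genes had the lowest median of the 29 lists, −0.35 without a block and −0.21 within series. Of 28 measured 20 were lower, 6 in all pairs and 1 higher in all, and 12 of the 28 were well above background on all 7 arrays. C2, a protease of the classical pathway, read −1.33, −0.44, −1.09 and −0.77 in sham and −1.58, −1.68 and −1.44 after 1 Hz, wholly below sham (−0.60, SE 0.34 within series, unadjusted limma p 0.0948). C5ar1, the receptor of C5a, rested on 1 array: it read 0.10 on the 1 Hz array of series B and −4.83 or less on the other 6, and is named after its values were seen. The sham array of series A had the highest mean of the list, −0.16, with −1.51 the lowest of the sham arrays, and without it the median was −0.15. With normexp background correction and quantile normalization the median was −0.06.

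Markers of other cell types were read beside these lists. Those of microglia, which make much of the brain's complement, had a median of −0.33 over 10 measured genes, and 5 of them (Aif1, Csf1r, Tmem119, Trem2 and Spi1) were not well above background on all 7 arrays. Their mean level was −0.96 to 0.23 in sham and −0.84 to −0.53 after 1 Hz, again with overlap. Of 14 astrocyte markers 12 were higher (median 0.21, and 0.11 without the sham array of series A), 4 of them in all pairs, with mean levels of 6.11 to 6.57 in sham and 6.44 to 6.64 after 1 Hz. Without a block, 10 of 13 oligodendrocyte lineage markers and 8 of 14 vascular and fibroblast markers were higher, and 8 and 6 within series. Of 5 choroid plexus and ependyma markers 4 were higher without a block and 3 within series, and of 14 cycling cell markers 4 and 8. Leaving out single arrays moved the median without a block from −0.48 to 0.93 for oligodendrocyte lineage and from −0.46 to 0.27 for cycling cell markers. The part of cell types in the differences of other lists was not tested.

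Some markers differed far more between series than between the groups. Cldn11, a tight-junction protein of myelin, read 3.74, −0.24, 6.17 and −0.22 in sham and 3.97, 6.19 and −0.17 after 1 Hz, close within each series and far apart between series. Mbp, the myelin basic protein, read 6.12, 2.01, 8.99 and 2.98 against 6.36, 9.17 and 2.40, and Col1a1, a fibroblast collagen, read 1.24, 3.43, 4.23 and 6.92 against 0.35, 4.77 and 7.43. Series B, C and D kept the same order in both groups. Mbp and Col1a1 were chosen after their values were seen.

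**Figure D5:**
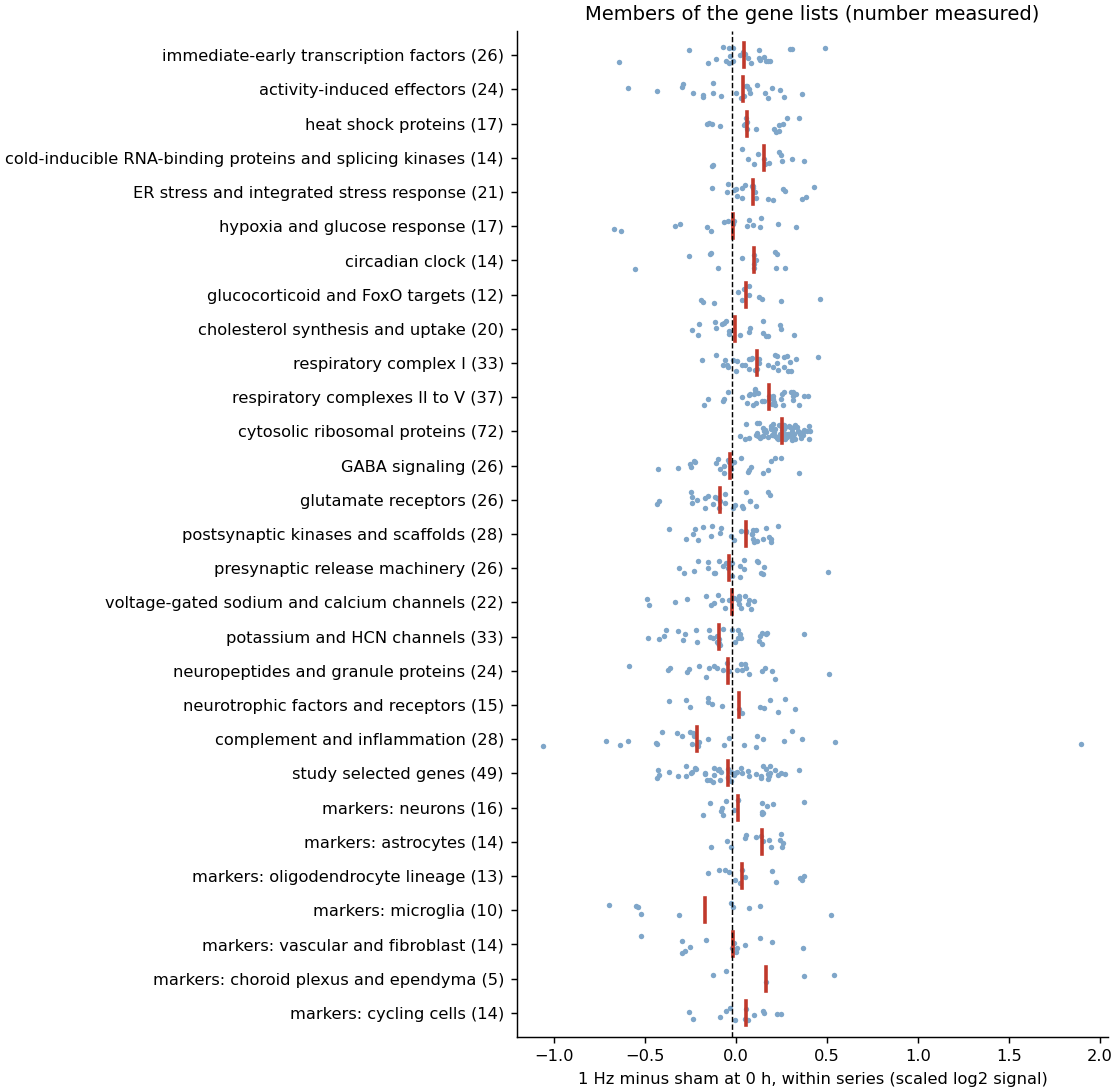
Within-series difference between 1 Hz and sham at 0 h, in scaled log2 signal, of each measured gene of the 29 lists, with the number measured in brackets. Red bars are the medians of the lists and the dashed line the median of all genes (−0.02): the ribosomal list (0.26) lies farthest above it and the complement list (−0.21) farthest below.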

How the data were processed

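The authors deposited scanner files whose processed signal is a background-corrected intensity per spot, extracted with Agilent Feature Extraction 12.0.3.1 from 1-color arrays (build rn4 per the file headers) and not normalized between arrays. A second deposited table gives the authors' score of every probe, a z-score within its array, and recomputing it gave values within 0.005. All columns were assigned to samples, and titles gave the groups. Each array had 62976 spots, 58717 of them noncontrol, for 45598 probes.

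Here log2 processed signals were averaged per probe without outlier spots, converted to z-scores within each array and brought back to a log2 scale with the median array SD (4.06). Probes had to be well above background on 3 or more arrays, which, with 420 dropped for missing values and 9484 as too dim, left 35694 to test. All 16 groups (55 arrays, without 1 array of 1 Hz at 2 h with a misplaced grid) were fitted with limma 3.58.1 in R 4.3.3, two-sided, with Benjamini-Hochberg adjustment over all probes and 39 residual plus 2.82 prior degrees of freedom. The fit within series added a block for each series of a time point (24 residual and 2.40 prior degrees of freedom). It uses the control and iTBS arrays of a series too, so its estimate need not be the mean of the 3 pair differences. The script was tested on simulated data of the same layout. Where a gene had several probes, the brightest over all arrays stood for it. Symbols came from RefSeq (GRCr8) through probe accessions for 21109 probes (46.3%), so genes are given without coordinates. Of 673 symbols in 29 gene lists, 31 matched no probe and 10 were too dim to test. Promoters were matched by symbol, and Txnip, Fos and Arc had no entry in the table used here.

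Named genes were the 6 higher and 6 lower with the smallest p in each fit (probes well above background on all 7 arrays), Fos, Arc, Egr1, Npas4, Rbm3, Cirbp, Txnip, Hspa1b and Bdnf where measured, and up to 2 per list with the largest within-series difference among those moving 1 way in all pairs. Genes, lists and tests were chosen with earlier results of these data known. The number of arrays limits precision. Alternatives were other scalings (75th percentile, quantile, normexp on the median signal with an offset of 50, since the files hold no mean signal), filters, sets of arrays, blocks, the study's criteria, and leaving out each array.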

Additional observations from a re-analysis of the deposited data

How the results depend on the processing

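In limma the absence of passing probes held under every scaling, filter, block and set of arrays tried, with 1 exception. Without the 1 Hz array of series C (replicate 2), 1 probe passed, so the count without single arrays ran from 0 to 1. That probe, A_44_P1109834, has no symbol, and it read 2.73 on the 1 Hz array of series B beside −2.61 and −1.77 on the other 1 Hz arrays and −3.52 to −2.40 in sham. The criteria of the study, as rebuilt here from its methods text, left 3 probes, far fewer than the study's own count. Title replicate numbers do not pair the samples: deviations from group means correlated between −0.256 and 0.561 for the same number and between 0.561 and 0.628 for the same series. With the replicate block 0 probes passed, with 604 instead of 321 at an unadjusted p under 0.05. That number was 625 with series as a block, 709 without the filter on dim probes, 151 with all 56 arrays, 102 of 26868 for probes well above background on all 7 arrays, and 233 to 577 without single arrays. Within series, 1162 became 2510 with the 6 arrays of series B, C and D alone and 1771 without the filter. With the slide as a block in place of the series it was 334, which is no longer a within-series number. The later-time contrast moved from 592 to between 326 and 1028.

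Of 910 gene values recomputed, 874 kept their direction, and 59 of 67 genes had no reversal within the fit that named them. These counts are not evidence of a direction. Other filters and other sets of whole groups cannot change a difference without a block, and most genes were chosen by these same values. Without a block, reversals were 0.0137 for Arc with series as a block, 0.10 and 0.12 for Bdnf with series or slide, and 0.0343 for Txnip with the replicate block. Fos turned to 0.0420 (75th percentile), 0.10 (normexp), 0.0432 (quantile), 0.14 (replicate block), 0.10 (series) and 0.18 (slide). Npas4 turned to 0.0669 (normexp), 0.00699 (series) and 0.0201 (slide). In the other fit, Npas4 within series turned to 0.0319 (75th percentile), 0.11 (normexp) and 0.0201 (slide), Cirbp within series to −0.0238 (normexp) and −0.0156 (quantile) and Srf within series to −0.00112 (slide). The slide took the place of the series block in these fits, so the slide values are not within-series values. Without single arrays, values ran from −1.41 to 0.30 for Arc, −0.56 to 0.66 for Bdnf, −0.65 to 0.43 for Egr1, −0.70 to 0.89 for Fos, −0.87 to 0.86 for Npas4 and −1.16 to 0.83 for Txnip. Without single series, Arc within series ran from −0.27 to 0.12, Bdnf within series from −0.0901 to 0.40, Egr1 within series from −0.46 to 0.0423 and Npas4 within series from −0.38 to 0.30. Of 29 lists, 15 had a median above that of all genes, and 12 to 23 without single arrays (23 without the 1 Hz or the sham replicate 2). The causes were not tested. Signal over background limits Npas4, Egr3 and most complement genes.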
